A study of Mus musculus with 12 samples.

Results

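In the pancreatic islets of non-obese diabetic (NOD) mice, 893 sorted CD8 T cells carried transcripts of both Tnfrsf4, which encodes the costimulatory receptor OX40, and Izumo1r, which encodes folate receptor 4 (FR4). They were chosen by a gate on raw unique molecular identifiers (UMIs, each a counted RNA molecule): at least 1 UMI of Tnfrsf4, at least 1 UMI of Izumo1r, 0 UMIs of Havcr2 and 0 UMIs of Mki67. The gate was applied to cells with under 5% mitochondrial UMIs and 200 to 3500 genes, and it took 893 of 18163 islet cells, of 24117 cells kept in all 6 libraries. These 4 genes chose the cells, so their levels are given as a description without a test.

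OX40 is a member of the TNF receptor superfamily that T cells raise after antigen contact. Its ligand is made by antigen-presenting cells and by some activated T cells, and its signal runs through TRAF adaptors to NF-kB and to survival genes. FR4 is a cell surface protein known mainly from CD4 T cells, where it marks regulatory T cells and, together with CD73 (encoded by Nt5e), anergic cells that do not respond to further antigen. Havcr2 encodes the coinhibitory receptor TIM-3 of terminal effector cells, and Mki67 marks cycling cells. Since FR4 and OX40 are best known from CD4 T cells, the lineage of the gated cells was examined before any comparison.

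All libraries came from NOD/ShiLtJ females of 10 to 15 wk that had not developed diabetes. Each of 2 rounds pooled the islets and the spleens of 10 mice, and the mice within a pool cannot be told apart. CD8 T cells without lineage markers (CD4, B220 and CD11b) were sorted as positive or negative for a Kd tetramer with the NRP-V7 peptide, which binds T cells that recognize the β-cell antigen IGRP. Islets gave a tetramer-negative and a tetramer-positive library in each round, and the spleen gave a tetramer-positive library in each round. Per-library values below are given in the order tetramer-negative Rounds 1 and 2, then tetramer-positive Rounds 1 and 2. Tests between the sorts rest on the spread between the 2 pools of a sort. Tests of gated against comparison cells rest on how far their difference varied among the 4 islet libraries. These 4 libraries came from 2 pools of mice, so they are not 4 independent samples. The p-values measure only these spreads.

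Gated cells were found in many T cell clones, and the receptor sequences of a few of them are shown first because they recurred across separate clones. Cells of 1 library with the same CDR3 nucleotides in both chains were counted as a clone, the CDR3 being the stretch of each receptor chain that meets the antigen. In the tetramer-negative sort, 1 α chain rearrangement joined TRAV9N-4 (Trav9n-4, chromosome 14 of GRCm38, 53294341 to 53295030, plus strand) to TRAJ4 (Traj4, chromosome 14, 54216291 to 54216353, plus strand). It occurred in 5 clones, of which 3 held a gated cell, and all used TRBJ2-3 (Trbj2-3, chromosome 6, 41543223 to 41543271, plus strand) in the β chain, with a V gene that was not the same in all of them. The largest had 51 cells in Round 2, of which 8 were gated, and the next had 11 cells in Round 2, of which 5 were gated. The α CDR3 of these clones is printed 5′ to 3′ as deposited, and capitals mark the bases that differ from the 51-cell clone.
α, 51-cell clone of Round 2: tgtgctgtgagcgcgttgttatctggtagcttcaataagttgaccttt
α, 11-cell clone of Round 2: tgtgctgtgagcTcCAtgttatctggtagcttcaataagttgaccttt
α, a 2-cell clone of Round 2 without a gated cell: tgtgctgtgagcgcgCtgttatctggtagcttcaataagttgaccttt
All 5 α CDR3 sequences were 48 bases long. The sequence printed for the 11-cell clone was also the α CDR3 of another 2-cell clone of Round 2 and of a single gated cell of Round 1, which came from a separate pool of mice. Their β chains were 45 bases long and are printed in the same way.
β, 51-cell clone of Round 2: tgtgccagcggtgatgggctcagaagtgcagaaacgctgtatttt
β, 11-cell clone of Round 2: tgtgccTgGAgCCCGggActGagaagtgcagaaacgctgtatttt
β, gated cell of Round 1: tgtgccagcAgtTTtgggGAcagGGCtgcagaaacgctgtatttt
In Round 2 these clones held 66 cells, of which 13 (19.7%) were gated, whereas 5.60% of all paired tetramer-negative cells of that round were gated.

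The other rearrangement joined TRAV13-2 (Trav13-2, chromosome 14, 53634829 to 53635399, plus strand) to TRAJ40 (Traj40, chromosome 14, 54177921 to 54177981, plus strand). In Round 1 it was found in 7 clones with 11 cells, of which 5 (45.5%) were gated, against 5.98% of all paired tetramer-negative cells. In Round 2 it was found in 4 clones with 8 cells, of which 4 (50%) were gated. Of the Round 1 clones, 5 paired this α chain with TRBV12-1 or TRBV12-2 and TRBJ2-1 (Trbj2-1, chromosome 6, 41542754 to 41542803, plus strand) in β chains of the same length. Their sequences are shown because the chains of 5 separate clones differ at few positions, and capitals mark differences from the 5-cell clone, of which 2 cells were gated.
α, 5-cell clone: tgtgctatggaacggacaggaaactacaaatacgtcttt
α, single gated cell with TRBV12-1: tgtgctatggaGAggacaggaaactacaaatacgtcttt
α, single gated cells with TRBV12-1 and with TRBV12-2: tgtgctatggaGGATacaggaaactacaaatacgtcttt
α, single cell outside the gate: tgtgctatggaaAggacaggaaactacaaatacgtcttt
β, 5-cell clone: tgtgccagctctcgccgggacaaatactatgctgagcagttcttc
β, gated cell with TRBV12-1 and the GA α chain: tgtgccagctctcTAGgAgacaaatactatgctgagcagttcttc
β, gated cell with TRBV12-1 and the GGAT α chain: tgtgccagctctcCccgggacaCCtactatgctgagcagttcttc
β, gated cell with TRBV12-2: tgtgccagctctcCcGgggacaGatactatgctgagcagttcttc
β, single cell outside the gate: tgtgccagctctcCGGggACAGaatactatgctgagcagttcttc
Both rearrangements were picked after their values were seen, out of 1572 α V-J pairs in tetramer-negative clones, so no test was made and the counts are a description.

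The gated cells held 2036686, 2540631, 303870 and 494562 UMIs in the 4 libraries. A median gated cell had 5427, 5118.5, 6941 and 6362 UMIs, against 3747.5, 3826, 3739 and 4075 UMIs in the other cells of the same library. Deeper cells pass a gate on detected transcripts more easily, so each main comparison was repeated with cells of 3000 to 6000 UMIs, and shares of cells with a UMI were repeated after each cell was thinned to 1000 UMIs. The summed depth was lowest in the tetramer-positive libraries, where 1 UMI is worth 3.29 and 2.02 CPM. No barcode of a gated cell was shared among the islet libraries.

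The lineage transcripts of the gated cells were those of CD8 T cells. Cd8a (a chain of the CD8 coreceptor) was detected in 827 of 893 gated cells (92.6%) and in 75.1% of the other islet cells. In single libraries the share was 91.1%, 93.0%, 90.7% and 98.6% of gated cells and 71.8%, 73.8%, 84.8% and 88.5% of other cells. After thinning to 1000 UMIs the shares were 55.4%, 52.3%, 41.9% and 60.3% against 36.1%, 36.8%, 50.7% and 55.8%, so the gated cells stayed above the others in 3 of 4 libraries and lay below them in the tetramer-positive library of Round 1. A UMI of Cd8a or Cd8b1 was found in 861 gated cells (96.4%), and Cd3e, a subunit of the T cell receptor complex, was found in 887 (99.3%). Cd4 had a UMI in 2 of 893 gated cells (0.224%, 95% Clopper-Pearson confidence interval 0.0271 to 0.807) and in 5 of 17270 other cells (0.029%). Foxp3, the lineage factor of regulatory T cells, had a UMI in 7 gated cells (0.784%, 95% interval 0.316 to 1.61) and in 42 other cells (0.243%). Of the 9 gated cells with Cd4 or Foxp3, 5 also had Cd8a or Cd8b1. These intervals cover counting error only. The summed levels of Cd4 and Zbtb7b, the factor that sets the CD4 fate, were 0 to 2.02 CPM (counts per 1e6 UMIs of the class) in gated cells and 0.134 to 0.664 CPM in other cells.

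**Figure D1:**
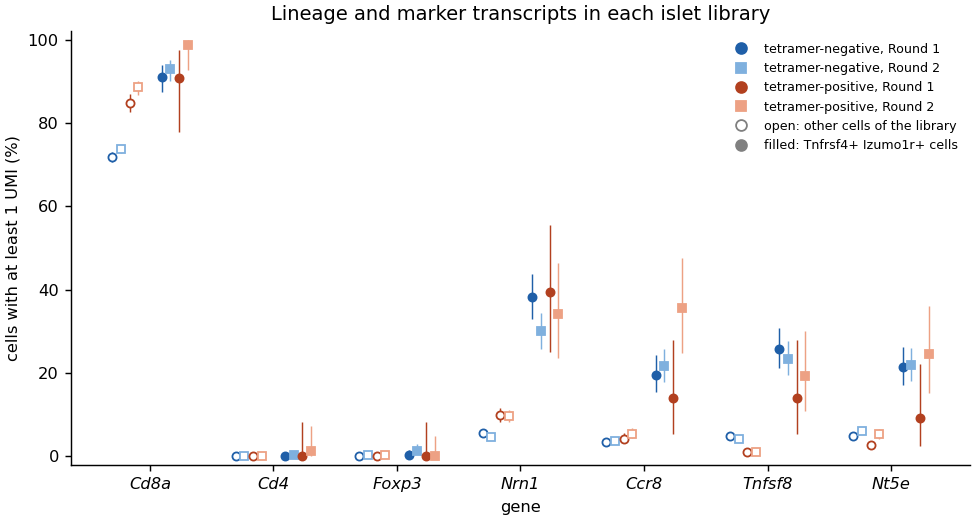
Percentage of cells with at least 1 UMI of Cd8a, Cd4, Foxp3, Nrn1, Ccr8, Tnfsf8 and Nt5e, for gated cells (filled) and other cells (open) of each islet library, with 95% Clopper-Pearson intervals that cover counting error. Cd8a was found in 90.7% to 98.6% of gated cells, Cd4 and Foxp3 lie near 0 in both classes, and Nrn1, Ccr8, Tnfsf8 and Nt5e lie above the other cells of the same library in all 4 libraries.

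The gate took 337 of 6429, 440 of 8932, 43 of 1204 and 73 of 1598 cells, which is 5.24% (95% interval 4.71 to 5.82), 4.93% (4.49 to 5.40), 3.57% (2.60 to 4.78) and 4.57% (3.60 to 5.71). The mean share was 5.08% ± 0.223 (SD, n = 2 libraries) in the tetramer-negative sort and 4.07% ± 0.705 (SD, n = 2) in the tetramer-positive sort. The difference of -1.01 percentage points had an exact two-sided permutation p of 0.33, the smallest that 2 libraries against 2 allow. Within Round 1 the difference was -1.67 points and within Round 2 it was -0.358 points. The limit on Havcr2 and Mki67 bore on this difference. It kept out 61, 93, 17 and 39 cells with both gate transcripts, and without it the shares were 6.19%, 5.97%, 4.98% and 7.01%, so the tetramer-positive sort was lower in Round 1 and higher in Round 2. Thinning each cell to 1000 UMIs left 1.10%, 1.18%, 0.255% and 0.836% of cells in the gate. In the tetramer-positive spleen cells, 1 of 5954 cells passed (0.0168%), with Tnfrsf4 in 0.453% and Izumo1r in 1.01% of cells at a median of 2659 UMIs. Free RNA of these transcripts was not measured in the islet libraries, and the spleen, with few cells that make them, gives no measure of it there.

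Most gated cells carried few copies of the defining transcripts. The median count of Tnfrsf4 was 3, 4, 2 and 3 UMIs and that of Izumo1r was 2, 2, 1 and 1 UMIs. Exactly 1 UMI of each was found in 46, 55, 13 and 15 cells (13.6%, 12.5%, 30.2% and 20.5%), which lie at the edge of the gate. At least 2 UMIs of each were found in 145, 202, 10 and 21 cells (43.0%, 45.9%, 23.3% and 28.8%). Just outside the gate lay 558, 789, 127 and 185 cells with Tnfrsf4 and no Izumo1r, and 339, 565, 77 and 91 cells with Izumo1r and no Tnfrsf4, all without Havcr2 and Mki67. Tcf7, the transcription factor of progenitor cells, and Pdcd1, which encodes the coinhibitory receptor PD-1, were both detected in 79, 96, 16 and 30 gated cells (23.4%, 21.8%, 37.2% and 41.1%).

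Gated cells had profiles that lay near each other in expression, to an extent that varied by library. When each cell's 20 nearest neighbours within its library were taken from 30 principal components of 2000 variable genes, without the 4 gate genes and without receptor segments, 39.1%, 35.7%, 11.5% and 25.8% of the neighbours of gated cells were themselves gated. The gated share of each library was 5.24%, 4.93%, 3.57% and 4.57%, so the neighbour share was 7.46, 7.24, 3.22 and 5.64 times as high. Among the neighbours of cells with Tnfrsf4 and no Izumo1r, 17.5%, 17.1%, 7.68% and 10.3% were gated. In all, 18, 39, 9 and 8 gated cells had no gated neighbour. These shares are a description, since neighbours were taken from the cells that the gate had split.

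Nrn1 (neuritin), Ccr8 (a chemokine receptor) and Tnfsf8 (the CD30 ligand) were given as markers of these cells with results of the data known, and they support nothing further. Nrn1 (chromosome 13 of GRCm38, 36725361 to 36735131, minus strand) was found in 38.3%, 30.0%, 39.5% and 34.2% of gated cells and in 5.60%, 4.72%, 9.82% and 9.64% of others. Ccr8 (chromosome 9, 120092114 to 120094906, plus strand) was found in 19.6%, 21.6%, 14% and 35.6% against 3.40%, 3.71%, 4.22% and 5.44%. Tnfsf8 (chromosome 4, 63831308 to 63861347, minus strand) was found in 25.8%, 23.4%, 14% and 19.2% against 4.94%, 4.27%, 0.947% and 1.11%. In each library the gated cells were above the others for all 3, also after thinning, where Nrn1 was found in 16.4%, 10.9%, 14% and 11.0% against 2.22%, 1.61%, 3.61% and 3.58%. In the spleen libraries Nrn1, Ccr8 and Tnfsf8 were found in 1.01%, 0.185% and 2.86% of cells at a median of 2659 UMIs, a share of Tnfsf8 above that of the other tetramer-positive islet cells. The markers did not all sit in the same cells. None of Nrn1, Ccr8, Tnfsf8 and Nt5e was detected in 34.4%, 36.6%, 44.2% and 37.0% of gated cells, and at least 2 were detected in 32.0%, 25.5%, 14% and 39.7%, against 2.86%, 2.80%, 2.33% and 3.08% of other cells.

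To ask how the gated cells differed from the other cells of the same library, UMIs were summed per library and class and tested with edgeR's quasi-likelihood test with the library as a block. The 4 gate genes were not tested, while all other genes were measured in the same cells that the gate chose. In this comparison 691 of 9731 genes were higher in gated cells (7.1%) and 737 were lower (7.57%, with 14.7% in either direction), at a Benjamini-Hochberg adjusted p under 0.05. Without the tetramer-negative library of Round 1 the counts were 273 and 296, and without that of Round 2 they were 330 and 397. With cells of 3000 to 6000 UMIs on both sides they were 441 and 360. The other cells include cells with Havcr2 and Mki67, and against other cells without either the counts were 627 and 613.

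Plagl1 (chromosome 10, 13060504 to 13131694, plus strand), which encodes a zinc finger transcription factor, had the largest rise among the named genes. Its level was 62.4, 80.7, 32.9 and 54.6 CPM in gated cells and 6.20, 10.8, 1.97 and 5.34 CPM in other cells. The groups did not overlap, and the log2 fold change was 3.10 ± 0.14 (SE, n = 4 libraries; edgeR adjusted p = 1.71e-11). Tnfsf8 was at 118, 104, 32.9 and 48.5 CPM against 15.4, 14.9, 3.59 and 3.61 CPM, a log2 fold change of 2.90 ± 0.13. Ccr8 followed at 59.9, 88.2, 62.5 and 149.6 CPM against 12.9, 16.6, 15.8 and 24.3 CPM (2.34 ± 0.12), and Nrn1 at 176, 128, 257 and 176 CPM against 32.4, 24.1, 47.7 and 50.6 CPM (2.29 ± 0.09). Nrp1 (neuropilin 1, a coreceptor found on regulatory and anergic T cells) rose by 2.14 ± 0.12, from 10.6 to 13.4 CPM in other cells to 32.9 to 64.7 CPM in gated cells. Hivep3, a zinc finger gene, rose by 2.20 ± 0.15, Lrig1, a brake on growth factor receptors, by 1.99 ± 0.11, and Pdcd1lg2, which encodes the PD-1 ligand PD-L2, by 1.94 ± 0.12. The chemokine gene Cxcl10 rose by 1.78 ± 0.14, the prostaglandin E2 receptor gene Ptger2 by 1.64 ± 0.14, and Cd200, which encodes a ligand of an inhibitory receptor on myeloid cells, by 1.61 ± 0.12. The rule that named these genes required them to be higher in gated cells in 4 of 4 libraries.

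**Figure D2:**
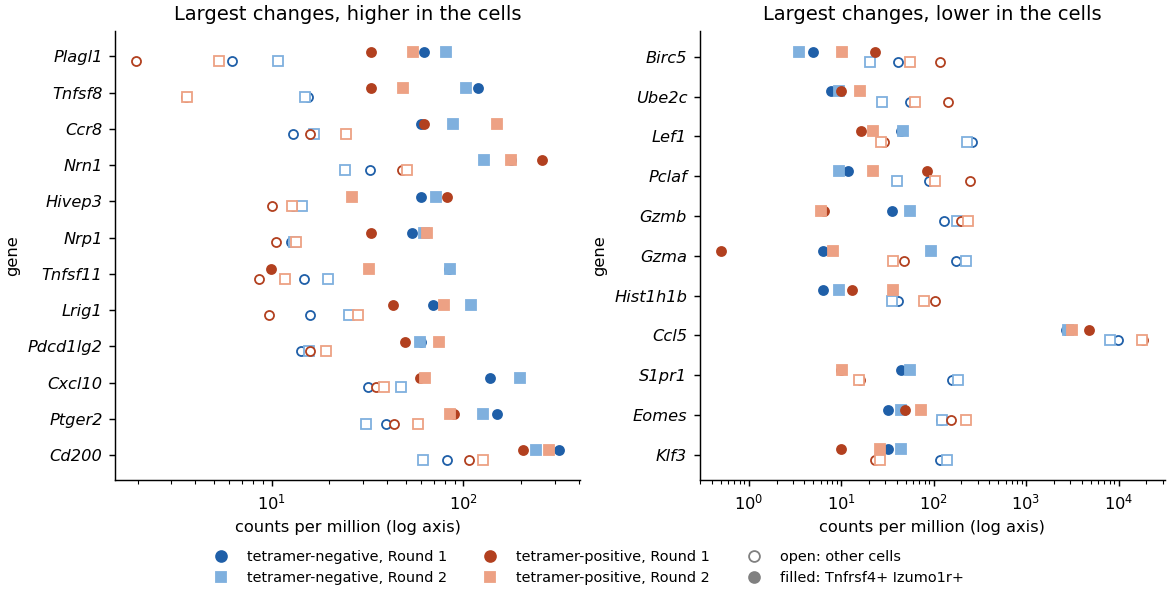
CPM on a log axis in gated cells (filled) and other cells (open) of each islet library, for the 12 genes with the largest rise (left) and 11 of the 12 with the largest fall (right) named by a fixed rule. A level of 0 is drawn at 0.5 CPM. Plagl1 lies at 32.9 to 80.7 CPM in gated cells against 1.97 to 10.8 CPM in others, and Ccl5 at 2684 to 4815 CPM against 8119 to 18598 CPM.

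Genes of the cytotoxic program were lower. Ccl5, a chemokine of effector and memory CD8 T cells, was at 2684, 2821, 4815 and 3132 CPM in gated cells and at 9759.7, 8119, 18598 and 17983 CPM in other cells, and it fell by 1.97 ± 0.12 on the log2 scale (SE, n = 4 libraries; edgeR adjusted p = 9.94e-10). Gzmb, encoding granzyme B, was at 35.8, 55.5, 6.58 and 6.07 CPM against 130.3, 179.9, 196 and 237 CPM, and fell by 2.21 ± 0.21. Gzmk (granzyme K) fell by 1.52 ± 0.12, Prf1 (perforin) by 1.07 ± 0.13 and Fasl (Fas ligand) by 1.66 ± 0.12. Among 21 measured cytotoxic and effector genes, 16 were lower, 2 were higher and 3 did not pass, where 7.57% of all genes were lower and 7.1% higher. The median log2 fold change of the list was -1.01, against -0.0122 over all genes tested. Of the 16 lower genes, 14 were called with each library left out in turn. The gate limits Havcr2, a gene of effector cells, and of all 18 calls of the list 16 held against other cells without Havcr2 and Mki67, 15 with cells of 3000 to 6000 UMIs and 14 by DESeq2. S100a6, a calcium-binding protein gene, changed by -0.51 and did not pass in either of the first 2 settings (adjusted p = 0.422 and 0.187). Prdm1, which encodes Blimp-1, changed by -1.40, by -0.79 against other cells without Havcr2 and Mki67, and did not pass with cells of 3000 to 6000 UMIs (0.0511). The chemokine gene Ccl3 changed by -1.18 and -0.63, S100a4 by -1.01 and -0.62 and Nkg7, a granule protein gene, by -0.63 and -0.38 against all other cells and against those without Havcr2 and Mki67. The 2 higher genes, Ifng (0.53 ± 0.11) and Tbx21 (0.35 ± 0.10), lost their calls without either tetramer-negative library (adjusted p = 0.132 and 0.241 for Ifng, 0.300 and 0.578 for Tbx21). Summed over the list, the level was 5619 to 8458 CPM in gated cells and 12361 to 25776 CPM in other cells. Gzma, encoding granzyme A, was at 6.38, 94.5, 0 and 8.09 CPM against 177, 225, 47.5 and 36.3 CPM, and its fall of 2.18 ± 0.30 became a log2 fold change of -4.50 without the tetramer-negative library of Round 2.

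Eomes, a transcription factor of effector, memory and exhausted CD8 T cells, was at 31.9, 44.1, 49.4 and 72.8 CPM in gated cells against 120.5, 123, 154 and 226 CPM, and fell by 1.68 ± 0.11. Klf3, a repressor linked to quiescence, fell by 1.66 ± 0.15. The proliferation genes Birc5, Ube2c, Pclaf and Hist1h1b were also among the 12 largest falls, with log2 fold changes of -2.69, -2.36, -2.27 and -2.07. Against other cells without Havcr2 and Mki67 UMIs these values were -0.19, -0.47, 0.17 and -0.01 and none passed. That comparison removed the cells with Havcr2 and with Mki67 together, and the parts of these 2 limits of the gate were not tested apart.

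Of 11 measured genes of the anergy list, 4 were higher and 0 were lower, against 7.1% and 7.57% of all genes, and the median log2 fold change was 0.30. Nt5e, which encodes CD73 (chromosome 9, 88327197 to 88372092, plus strand), was at 51.6, 48.8, 29.6 and 48.5 CPM in gated cells and at 13.2, 16.3, 6.81 and 15.0 CPM in other cells. It rose by 1.73 ± 0.13 (SE, n = 4 libraries; edgeR adjusted p = 1.20e-08) with no overlap. Nt5e and Nrp1 were called with each library left out. Dgkz (a diacylglycerol kinase, 0.55 ± 0.09) and Ndfip1 (an adaptor of ubiquitin ligases, 0.35 ± 0.10) lost their calls without a tetramer-negative library, Dgkz without that of Round 1 (adjusted p = 0.0676) and Ndfip1 without either (adjusted p = 0.258 and 0.265). Cblb, the ubiquitin ligase that restrains T cell receptor signals, was at 289.7, 397, 230.4 and 315 CPM against 289, 347, 237 and 371 CPM, a log2 fold change of -0.01 ± 0.09 (adjusted p = 0.968). Itpkb (0.15 ± 0.08) and Egr2 (0.08 ± 0.24) did not pass either.

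Of 13 measured genes of the TNF superfamily and costimulation list, 9 were higher and 1 was lower, against 7.1% and 7.57% of all genes. The median log2 fold change was 0.53. The 9 include Tnfsf8, which was given as a marker, and Ctla4, which encodes a coinhibitory receptor. Besides Tnfsf8, the ligand genes Tnfsf4 (OX40 ligand, 1.44 ± 0.10), Tnfsf11 (RANK ligand, 2.12 ± 0.15) and Tnfsf14 (LIGHT, 1.04 ± 0.27) rose. Tnfsf4 was at 88.4, 76.8, 142 and 186 CPM in gated cells and at 28.0, 25.0, 76.9 and 75.5 CPM in other cells. The gated cells thus held more transcript of the ligand of the receptor that chose them than all other cells did. Against cells with Tnfrsf4 and no Izumo1r, Tnfsf4 was not called. Tnfsf11 was at 84.0, 85.4, 9.87 and 32.4 CPM against 14.8, 19.6, 8.61 and 11.8 CPM, and the groups overlapped because of the tetramer-positive library of Round 1. Among receptors, Tnfrsf9 (4-1BB, 0.49 ± 0.09), Tnfrsf14 (HVEM, 0.49 ± 0.10), Tnfrsf18 (GITR, 0.53 ± 0.10), Icos (0.76 ± 0.12) and Ctla4 (0.73 ± 0.17) rose, and Cd27 fell by 0.38 ± 0.10. Of these 10 calls, 7 held with each library left out, and 6 held with cells of 3000 to 6000 UMIs. Among those cells Tnfrsf9 (adjusted p = 0.144), Tnfrsf14 (0.1004) and Cd27 (0.0651) did not pass, and Tnfsf14 had too few counts to be tested. Without the tetramer-negative library of Round 1, Tnfrsf18 (adjusted p = 0.0571), Ctla4 (0.104) and Tnfsf14 (0.0722) did not pass, and Tnfsf14 did not pass without that of Round 2 either (0.0996).

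Downstream of OX40, 6 of 15 measured genes of NF-kB and survival were higher and 1 was lower, against 7.1% and 7.57% of all genes, with a median log2 fold change of 0.23. Rel, the NF-kB subunit of activated lymphocytes, was at 222, 248, 184 and 239 CPM against 118, 114, 100.6 and 111 CPM and rose by 1.00 ± 0.08. Traf1, an adaptor induced by NF-kB, rose by 0.71 ± 0.08, and Nfkbia, the feedback inhibitor, by 0.57 ± 0.09. These 3 calls held with each library left out, but with cells of 3000 to 6000 UMIs Nfkbia did not pass (0.38, adjusted p = 0.0925), and 3 of the 7 calls of the list held there. Traf3 (0.36 ± 0.11), Traf5 (0.51 ± 0.14) and Nfkb1 (0.31 ± 0.08) were higher and Bcl2, a survival gene, was lower (fell by 0.66 ± 0.12), but without the tetramer-negative library of Round 1 none of these 4 passed (adjusted p = 0.378, 0.312, 0.232 and 0.148), and without that of Round 2 only Bcl2 did (0.437, 0.193, 0.19 and 0.0477).

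Transcripts of regulatory T cells were raised in part while the lineage factor was close to absent. Il2ra, the high-affinity IL-2 receptor chain, was at 18.2, 14.2, 36.2 and 10.1 CPM against 5.94, 5.40, 4.48 and 6.28 CPM and rose by 1.55 ± 0.25. It was found in only 2 of 43 and 4 of 73 tetramer-positive gated cells. With cells of 3000 to 6000 UMIs Il2ra was not called. Ikzf2 (Helios) rose by 0.60 ± 0.10 and Capg by 0.41 ± 0.11. That is 3 of 4 measured genes of the list higher and 0 lower, against 7.1% and 7.57% of all genes, although Capg did not pass without either tetramer-negative library (adjusted p = 0.405 and 0.344) or by DESeq2 (0.225). Foxp3, Lrrc32 and Gpr83 had too few counts to be tested. With the 9 cells with Cd4 or Foxp3, and the other cells with either, left out, 688 genes were higher and 710 lower, of which 674 and 700 were called with those cells included.

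Genes of stemness and quiescence went in both directions. Of 12 measured genes, 4 were higher and 5 were lower, against 7.1% and 7.57% of all genes, and the median log2 fold change was -0.15. Slamf6 (Ly108, a progenitor marker) rose by 0.85 ± 0.09, and Ccr7, which guides T cells to lymph nodes, by 1.36 ± 0.29. Its level was 655, 1058, 727 and 1448 CPM in gated cells and 453, 936, 122 and 241 CPM in others. Lef1 was at 44.7, 46.8, 16.5 and 22.2 CPM against 262, 232, 29.4 and 26.8 CPM and fell by 2.32 ± 0.17, although DESeq2 did not call it (adjusted p = 0.0694). S1pr1, the receptor for exit from tissue, fell by 1.77 ± 0.12, and Klf2, which drives it, by 1.43 ± 0.14. Slamf6, Ccr7, Lef1, S1pr1 and Klf2 were called with each library left out. The value for Ccr7 depended on the library, with 0.87 without the tetramer-positive one of Round 2 and 1.87 without the tetramer-negative one of Round 2, it was 0.83 with cells of 3000 to 6000 UMIs, and DESeq2 did not call it (adjusted p = 0.141). Of the 9 calls of the list, DESeq2 made 4. Tcf7 did not pass (0.26 ± 0.12, adjusted p = 0.18) and passed only without the tetramer-negative library of Round 2 (0.45, adjusted p = 0.0338).

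Of 11 measured coinhibitory and exhaustion genes, 4 were higher and 2 were lower, against 7.1% and 7.57% of all genes, with a median log2 fold change of 0.12. Cd160 (1.26 ± 0.11), Btla (1.61 ± 0.15) and Cd200 rose and Entpd1, which encodes CD39, fell by 1.66 ± 0.17, each with every library left out, as did Eomes. The gate limits Havcr2, and against other cells without Havcr2 and Mki67 the change of Entpd1 was -0.96 (adjusted p = 0.00488). Lag3 rose by 0.55 ± 0.15 and did not pass without either tetramer-negative library (adjusted p = 0.282 and 0.154) or by DESeq2 (0.199). Pdcd1 was at 285, 287, 487 and 807 CPM in gated cells and at 291, 272, 573 and 712 CPM in other cells, a log2 fold change of 0.00 (adjusted p = 0.993). With at least 2 UMIs of Izumo1r in the gate it was -0.32 (adjusted p = 0.0312). Tox, a factor of exhausted cells, did not pass (0.12 ± 0.10, adjusted p = 0.494).

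Of 16 measured genes of recent T cell receptor signals, 8 were higher and 3 were lower, against 7.1% and 7.57% of all genes, with a median log2 fold change of 0.28. Cd83 (2.31 ± 0.16) and the chemokine gene Xcl1 (1.32 ± 0.10) rose most in the list, and Xcl1 was at 772, 601, 1790.2 and 1153 CPM against 278, 269, 569 and 575 CPM. Nr4a3 rose by 0.65 ± 0.09 and Bhlhe40 by 0.84 ± 0.12, while Dusp2, a phosphatase that dampens MAP kinase signals, fell by 0.85 ± 0.09. Against other cells without Havcr2 and Mki67 the change of Nr4a3 was 0.43, and 9 of the 11 calls of the list held. Among 8 measured chemokine receptors, Ccr8 and Cxcr3 (0.34 ± 0.10, with adjusted p = 0.189 and 0.368 without the tetramer-negative library of Round 1 or 2) were higher and Cxcr6 (fell by 0.84 ± 0.12), Ccr2 (fell by 1.58 ± 0.13) and Gpr183 (fell by 1.54 ± 0.13) were among the lower, with 2 of the 8 higher and 4 lower against 7.1% and 7.57% of all genes. Against other cells without Havcr2 and Mki67 the change of Cxcr6 was -0.41, and with cells of 3000 to 6000 UMIs it was -0.44 and did not pass (adjusted p = 0.065). Among 11 measured cytokine and receptor genes, 4 were higher and 2 lower against 7.1% and 7.57% of all genes, and of these calls only that of Lta (1.27 ± 0.21) held with each library left out.

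The lists of other cell types did not all go in the same direction. Of 6 exocrine genes, 4 were lower in gated cells and 0 were higher, where 7.57% of all genes were lower and 7.1% higher. Of these 4 calls, 0 held with each library left out and 0 by DESeq2. The summed level was 61.4 to 151 CPM in gated cells and 26.4 to 289 CPM in other cells. The endocrine list summed to 2.46 to 13.2 CPM against 4.84 to 146 CPM, and the myeloid list to 23.1 to 46.1 CPM against 17.9 to 31.0 CPM. The B cell list was higher in gated cells in each library, at 50.1, 49.6, 26.3 and 52.6 CPM against 46.9, 41.3, 14.7 and 14.6 CPM. Of this list 2 genes had enough counts to be tested, and neither passed. Csf1r, Cd79a and Ms4a1 had no count in gated cells, and neither had Zbtb16, Klrb1c and Ncr1 of innate-like lymphocytes. Trdc, the other gene of the innate-like list, had counts. That list summed to 0 to 1.57 CPM in gated cells and to 0 to 2.29 CPM in other cells. Of the myeloid list only Cd68 had enough counts to be tested, and it was called higher in gated cells (0.60). That call did not hold with each library left out, with cells of 3000 to 6000 UMIs or by DESeq2. The antigen presentation genes Cd74, H2-Aa and H2-Ab1 were all lower, and none passed without the tetramer-negative library of Round 1 (adjusted p = 0.0636, 0.0722 and 0.191). With cells of 10 or more exocrine UMIs, or 5 or more myeloid or B cell UMIs, left out of the other cells, 704 genes were higher and 736 lower. In that setting Cd74 (-0.21, adjusted p = 0.525), H2-Aa (-1.31, 0.0625) and H2-Ab1 (-0.69, 0.15) did not pass either. More than 1 productive β chain, which a doublet of T cells could give, was found in 2.85%, 5.25%, 3.03% and 1.54% of gated cells with a β chain and in 2.22%, 4.15%, 2.58% and 0.98% of others.

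Levels at the ends of the gate differed, as the plot of levels by UMIs of the gate genes shows. Plagl1 was at 2.74, 6.70, 3.98 and 5.36 CPM in cells with neither gate transcript and at 95.1, 100.3, 42.6 and 71.4 CPM in cells with at least 2 UMIs of each. Cd200 was at 43.2, 31.1, 109 and 104 CPM with neither and at 382, 265, 255 and 350.5 CPM with at least 2 of each. Ccl5 went the other way, from 9489.6, 7366, 23054 and 21232 CPM with neither through 6139.8, 5179, 8162 and 7329 CPM with Tnfrsf4 only to 1728, 1564, 703 and 1415 CPM with at least 2 of each. Cells with more UMIs of the gate genes also had more UMIs in all, with medians of 3536, 3597.5, 2904 and 3286 UMIs in cells with neither and 5676, 5387.5, 7387.5 and 6919 UMIs in cells with at least 2 of each. Between these ends the order was not the same in all libraries, and the tetramer-positive classes with 1 UMI of each held only 13 and 15 cells. These levels are a description of the gate.

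**Figure D3:**
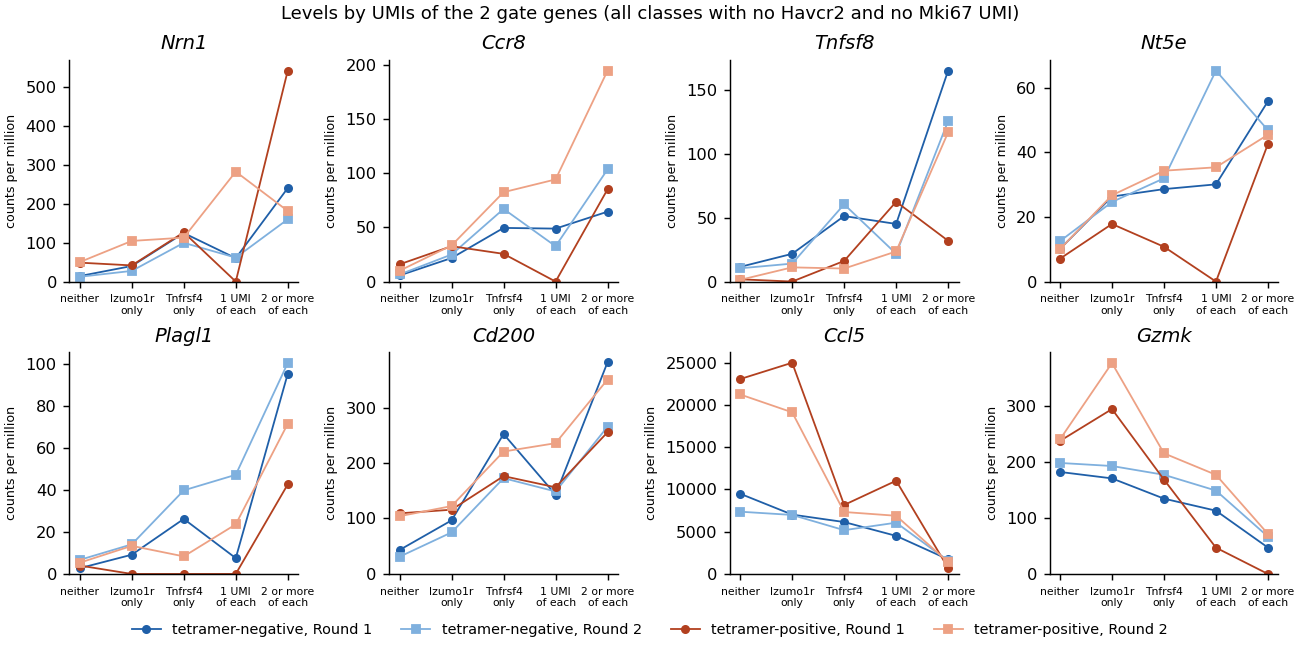
CPM (y axis) of 8 genes in cells without Havcr2 and Mki67 UMIs, grouped on the x axis by UMIs of Tnfrsf4 and Izumo1r, with a line for each of 4 islet libraries. Plagl1 and Cd200 are highest and Ccl5 and Gzmk lowest in cells with at least 2 UMIs of each gate gene in all 4 libraries, whereas Tnfsf8 and Nt5e do not peak there in every library.

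The question of what Izumo1r adds to Tnfrsf4 was asked by comparing gated cells with cells that had Tnfrsf4 and no Izumo1r. Of 8301 genes tested, 132 were higher in gated cells (1.59%) and 141 were lower (1.7%, with 3.29% in either direction). Without the tetramer-negative library of Round 1 the counts were 38 and 30, without that of Round 2 they were 36 and 47, and without the tetramer-positive library of Round 2 they were 90 and 91. Plagl1 was at 26.2, 39.7, 0 and 8.34 CPM in the Tnfrsf4 single-positive cells and was higher in gated cells by 1.29 ± 0.18 on the log2 scale. Tnfsf8 was higher by 1.03 ± 0.12, Hivep3 by 1.22 ± 0.14, Nrp1 by 0.96 ± 0.13 and Ccr7 by 0.89 ± 0.07. Nrn1 (0.54 ± 0.09) and Ccr8 (0.50 ± 0.11) were higher as well, and so was Nt5e (0.72 ± 0.14). Ccr8 did not pass without the tetramer-negative or the tetramer-positive library of Round 2 (adjusted p = 0.091 and 0.132), and Nt5e did not pass without the tetramer-negative library of Round 1 (0.12). With cells of 3000 to 6000 UMIs neither passed (Ccr8 0.243, Nt5e 0.151), nor by DESeq2 (0.151 and 0.112).

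Eomes set these classes apart most among the genes named by rule for the largest falls. It was at 125, 134, 137 and 205 CPM in Tnfrsf4 single-positive cells, close to the 120.5 to 226 CPM of all other cells, and at 31.9 to 72.8 CPM in gated cells, a log2 fold change of -1.68 ± 0.10 (SE, n = 4 libraries; edgeR adjusted p = 1.09e-11). Ccl5 fell by 1.01 ± 0.05, Gzmk by 0.89 ± 0.09, Gpr183, an oxysterol receptor that guides cell position, by 1.23 ± 0.15 and the killer lectin-like receptor gene Klre1 by 1.05 ± 0.17, whose call was lost without the tetramer-negative library of Round 2 (adjusted p = 0.053). Igkc, an immunoglobulin light chain gene that these cells do not make, was lower by 1.57 ± 0.18, at 15.7, 7.48, 39.5 and 28.3 CPM against 62.8, 20, 64.6 and 75.1 CPM. All 6 exocrine genes were lower too, but 0 of these 6 calls held with each library left out and 0 by DESeq2. The part of Igkc and the exocrine genes in these results was not tested. Of 20 measured cytotoxic genes 10 were lower and 1 was higher, where 1.59% of all genes were higher and 1.7% lower. Of 10 anergy genes 3 were higher and 0 lower, and of 4 regulatory T cell genes 0 passed. Against the same shares, 4 of 13 genes of the TNF superfamily and costimulation list were higher, Tnfsf8 and Ctla4 among them, and 1 was lower. Of 15 NF-kB and survival genes, 2 were higher and 0 lower. Of the 11 cytotoxic calls 7 and of the 3 anergy calls 1 held with cells of 3000 to 6000 UMIs. With each library left out, 4 of the cytotoxic and 1 of the anergy calls held. So did 2 of the 5 calls of the TNF superfamily and costimulation list and 1 of the 2 NF-kB and survival calls.

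Progenitor-like cells were the other reference, taken as cells outside the gate with UMIs of Tcf7 and Pdcd1 and without Havcr2 and Mki67 (626, 863, 129 and 230 cells). Tcf7 and Pdcd1 chose these cells and were left out of the tests. Of gated cells, 47.8%, 48.9%, 39.5% and 50.7% had a Tcf7 UMI. The part of this choice in the differences was not tested. Of 8314 genes tested, 344 were higher in gated cells (4.14%) and 381 lower (4.58%, with 8.72% in either direction), with 107 and 127 without the tetramer-negative library of Round 1 and 131 and 164 without that of Round 2. Plagl1 (2.47 ± 0.19), Tnfsf8 (2.35 ± 0.14), Hivep3 (2.05 ± 0.15) and Cxcl10 (1.45 ± 0.15) were the largest rises. Gpr183 was at 91.7, 122, 74.8 and 89.4 CPM in the Tcf7+ Pdcd1+ cells and at 20.1, 26.4, 13.2 and 42.5 CPM in gated cells, a fall of 2.05 ± 0.15. Eomes fell by 1.77 ± 0.12, Klf3 by 1.46 ± 0.14 and Igkc by 1.82 ± 0.17. Ccr7 was higher in gated cells here too (1.20 ± 0.14), while Lef1 (fell by 1.27 ± 0.12), S1pr1 (fell by 1.39 ± 0.11) and Klf2 (fell by 1.01 ± 0.09) were lower. Of 13 genes of the TNF superfamily and costimulation list 8 were higher, Tnfsf8 and Ctla4 among them, and 1 was lower. Of 20 cytotoxic genes 12 were lower and 1 was higher. Of these 9 and 13 calls, 7 and 9 held with cells of 3000 to 6000 UMIs. Many cells are shared between the 3 sets of comparison cells, and the gated cells are the same in all 3, so these comparisons are not independent of each other.

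Tetramer-positive and tetramer-negative gated cells were then compared directly over 2 libraries each. Of 8026 genes, 1 was higher (0.0125%) and 3 were lower (0.0374%) in the tetramer-positive sort (0.0498% in either direction), and 526 had an unadjusted p under 0.05. All 4 were β chain V segments. Trbv13-3 was at 34.9 and 87.8 CPM in tetramer-negative and at 652 and 1482 CPM in tetramer-positive gated cells, and Trbv16, Trbv19 and Trbv29 were lower. With the round as a block, which the shared pool of mice in a round allows, 98 genes were higher and 124 lower. In that fit Pdcd1 (1.24), Ccl4 (1.93), Klrk1 (1.74), Klrc1 (1.83), Ikzf2 (1.19) and Xcl1 (1.16) were higher and Gzmb (-2.83), Il7r (-1.56), Tnfsf11 (-1.80) and Tnfsf8 (-1.30) were lower in tetramer-positive gated cells, as log2 fold changes. Without the block, none of these 10 genes passed. The tetramer-positive libraries held only 43 and 73 gated cells.

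The difference between gated and other cells depended on the sort for 168 of 10366 genes (1.62%), tested as an interaction in edgeR. It was more positive in the tetramer-positive sort for 90 genes (0.868%) and more negative for 78 (0.752%). With cells of 3000 to 6000 UMIs these counts were 14 and 94. Ccr7 had a log2 ratio of gated to other cells of 0.53, 0.18, 2.57 and 2.58 in the 4 libraries, and the interaction was 2.32 ± 0.12 on the log2 scale (edgeR adjusted p = 1.19e-16). Its level in gated cells overlapped between the sorts, whereas the other tetramer-positive cells lay at 122 and 241 CPM, below the other tetramer-negative cells at 453 and 936 CPM. Ctla4 had ratios of 1.24, 1.28, -0.37 and 0.19 (interaction -1.16 ± 0.13), and Lag3 of 1.04, 1.07, -0.18 and -0.11 (-1.11 ± 0.12), so both coinhibitory genes were higher in gated cells in the tetramer-negative sort. Gzmb had ratios of -1.83, -1.68, -4.70 and -5.08 (-3.30 ± 0.44), where the tetramer-positive gated cells held 2 and 3 UMIs of it. DESeq2 did not call the interaction for Gzmb. The calls for Ccr7, Ctla4, Lag3 and Gzmb held with each library left out. In the stemness list, 5 of 12 genes were more positive in the tetramer-positive sort (Tcf7, Lef1, Satb1, Il7r and Ccr7) and 0 more negative. Over all genes the shares were 0.868% and 0.752%. Of these 5 calls, that for Ccr7 held with each library left out. With cells of 3000 to 6000 UMIs only the call for Ccr7 held, and DESeq2 made only those for Satb1 and Ccr7. Tcf7 and Satb1 did not pass without the tetramer-negative library of Round 1 (adjusted p = 0.228 and 0.402), that of Round 2 (0.465 and 0.335) or the tetramer-positive library of Round 2 (0.471 and 0.689).

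Il7r, encoding the IL-7 receptor, had ratios of -0.29, -0.41, 0.73 and 2.16 and an interaction of 2.38 ± 0.33, which was 1.12 without the tetramer-positive library of Round 2 (adjusted p = 0.611). Plaur, the urokinase receptor gene, had ratios of -0.60, -0.93, 0.58 and 1.63 (2.28 ± 0.23), which fell to 1.36 without that library and passed (adjusted p = 0.0402). Lef1 had ratios of -2.53, -2.28, -0.80 and -0.26 (2.02 ± 0.46), with no call without that library (1.55, adjusted p = 0.412). Cxcl10 (-1.27 ± 0.21) and Ptger2 (-1.16 ± 0.19) had larger ratios in the tetramer-negative sort, with 2.08 and 2.03 against 0.75 and 0.68 for Cxcl10. Without single libraries the counts were 25 and 20 (tetramer-negative Round 1), 22 and 8 (tetramer-negative Round 2), 189 and 112 (tetramer-positive Round 1) and 104 and 174 (tetramer-positive Round 2).

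**Figure D4:**
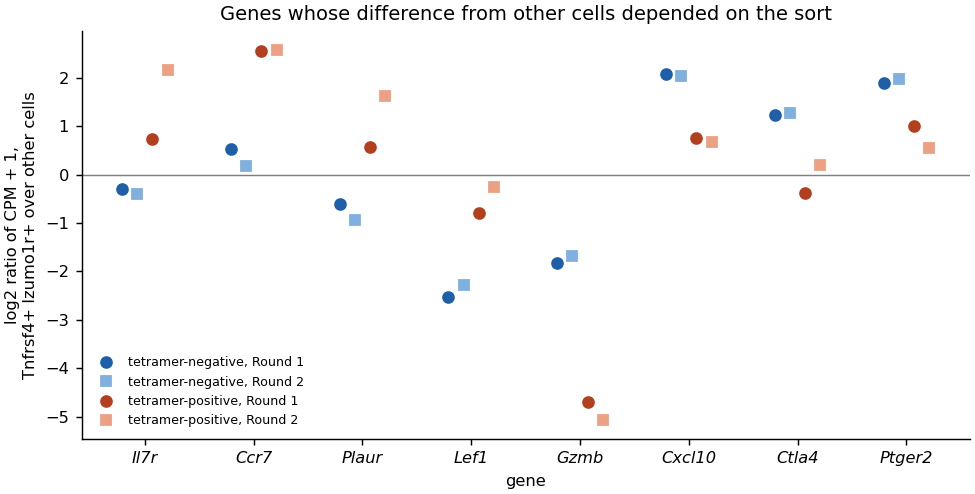
Log2 ratio of CPM plus 1 in gated over other cells (y axis) in each of 4 islet libraries, for the 8 genes named for their dependence on the tetramer sort (x axis). For Ccr7 the tetramer-negative libraries lie at 0.53 and 0.18 and the tetramer-positive ones at 2.57 and 2.58, and for Gzmb the tetramer-positive libraries lie at -4.70 and -5.08.

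A T cell receptor with exactly 1 productive α and 1 productive β chain was recovered from 179 of 337, 307 of 440, 25 of 43 and 58 of 73 gated cells (53.1%, 69.8%, 58.1% and 79.5%). Most of them belonged to clones of at least 2 cells. The share was 71.5% (95% interval 64.3 to 78.0), 73.3%, 92.0% and 91.4%, against 52.4%, 44.4%, 98.5% and 99.2% of other cells. The gated cells were thus above the others in the tetramer-negative and below them in the tetramer-positive sort, and the mean difference of 8.42 percentage points ± 18.4 (SD, n = 4 libraries) had an exact two-sided permutation p of 0.5. In Tnfrsf4 single-positive cells the share was 84.3%, 78.5%, 97.6% and 97.1%, above the gated cells in all 4 libraries. The difference of -7.35 points ± 3.66 (SD, n = 4) had an exact permutation p of 0.13, the smallest that 4 pairs allow, and 0.364 after Benjamini-Hochberg adjustment over 32 comparisons.

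The share of cells in a clone that also held a Havcr2+ cell was 30.7%, 31.6%, 60.0% and 75.9% of gated cells and 46.3%, 48.9%, 83.1% and 94.2% of Tnfrsf4 single-positive cells. The gated cells were lower in 4 of 4 libraries, by a mean of 18.6 points ± 3.25 (SD, n = 4; exact permutation p = 0.13, adjusted 0.364). Both classes have no Havcr2 UMI. Other cells without Havcr2 and Mki67 were at 26.0%, 20.3%, 85.4% and 91.2%, so the gated cells were above them in the tetramer-negative and below them in the tetramer-positive libraries, and the mean difference of -6.21 points ± 17.1 (SD, n = 4) had an exact permutation p of 0.62 (adjusted 0.741).

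**Figure D5:**
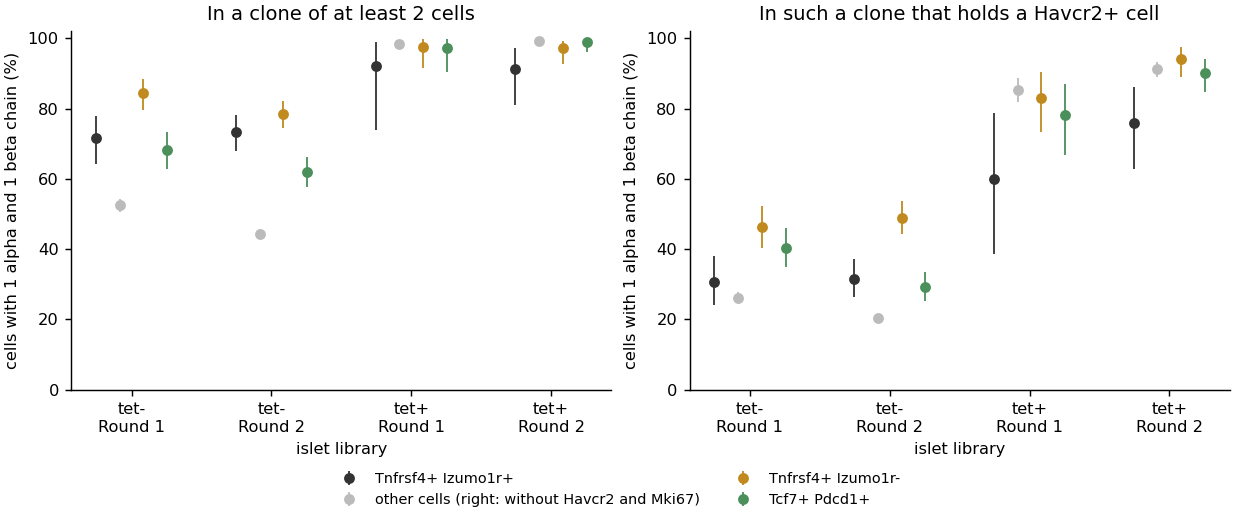
Percentage of cells with a paired receptor that belong to a clone of at least 2 cells (left) and to such a clone with a Havcr2+ cell (right), in 4 islet libraries and for 4 classes of cells, with 95% Clopper-Pearson intervals that cover counting error. Gated cells (black) lie below Tnfrsf4 single-positive cells (orange) in all 4 libraries in both panels, and above other cells (grey, on the right without Havcr2 and Mki67 UMIs) in the tetramer-negative libraries alone in both panels.

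Gated cells were spread over 122, 197, 17 and 28 clones, of which 51, 82, 2 and 5 were single cells. Of the clones of at least 2 cells with a gated cell (71, 115, 15 and 23), 69, 99, 15 and 23 also held cells outside the gate, and 2, 16, 0 and 0 had gated cells only. A gated cell was found in 8 of 11, 19 of 25, 5 of 6 and 12 of 16 clones of at least 20 cells. Larger clones hold a gated cell more easily, and most cells lie outside the gate. No expected counts were made, so these counts are a description. The clone with the most gated cells held 6 of 88, 9 of 31, 4 of 73 and 9 of 82 cells inside the gate.

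In the tetramer-positive sort, most gated cells used the same α rearrangement as the other cells. TRAV16N (Trav16n, chromosome 14, 53351028 to 53351621, plus strand) joined to TRAJ42 (Traj42, chromosome 14, 54175773 to 54175836, plus strand) formed the α chain in 76.0% and 93.1% of gated cells and in 85.8% and 98.4% of other cells. In the tetramer-negative sort it was found in 0 of 179 and 0 of 307 gated cells (upper 95% limits 2.04% and 1.19%). Other tetramer-negative cells had it in only 0.462% and 0.386%. The clone with the most gated cells in Round 2 (9 of 82 cells, TRBV13-3 with TRBJ2-4) is printed beside a clone of Round 1 in which 4 of 8 cells were gated, which joined TRAV16N to TRAJ53 and used TRBV15 with TRBJ2-7.
α, 82-cell clone of Round 2: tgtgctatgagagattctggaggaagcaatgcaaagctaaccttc
β, 82-cell clone of Round 2: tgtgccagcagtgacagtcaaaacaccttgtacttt
α, 8-cell clone of Round 1: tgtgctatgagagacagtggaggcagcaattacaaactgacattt
β, 8-cell clone of Round 1: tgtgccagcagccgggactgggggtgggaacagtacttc
The 82-cell clone was also recovered from the spleen of its round and the 8-cell clone was not. Of the tetramer-positive gated cells, 19 of 25 (76.0%) and 47 of 58 (81.0%) belonged to a clone seen in the spleen of the same round, against 94.6% and 95.9% of other cells. TRAV11 with TRAJ18, the α chain of invariant natural killer T cells, was not found in a gated cell (upper 95% limits 2.04%, 1.19%, 13.7% and 6.16%). Among other paired cells it was found in 1 of 5176 in the tetramer-negative library of Round 2 and in none elsewhere.

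V segments of tetramer-negative clones were compared with each clone counted once, for 122 and 197 clones with a gated cell against 1504 and 3163 clones without one. TRAV9-1 was used by 6.56% and 9.14% of clones with a gated cell and by 1.93% and 3.32% of the others. TRAV9N-4 was used by 4.10% and 5.08% against 1.26% and 1.07%, and TRBV3 by 10.7% and 10.2% against 4.39% and 5.53%. TRBV13-3, the β segment common in the tetramer-positive sort, was used by 1.64% and 4.57% against 7.91% and 8.63%. These segments were picked after their values were seen, out of 67 α and 22 β V segments, and they are given without a test.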

How the data were processed

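Sorted CD8 T cells of 6 libraries (10x 5′ single-cell RNA, with paired receptor libraries) were analysed. The deposited values are raw UMI counts per gene and cell barcode, made by the authors with Cell Ranger on the mm10 reference (the count file headers name version 5.0.1). The deposited receptor contig tables give UMI and read counts per assembled chain, made by the authors with the same software.

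Cells with under 5% mitochondrial UMIs and 200 to 3500 genes (spleen, up to 2000) were kept. No doublet caller was run, and the upper gene limit and a second β chain served as checks. Counts were summed per library and class and tested with edgeR 4.0.16 (R 4.3.3) by its quasi-likelihood test with TMM scaling, filterByExpr and Benjamini-Hochberg adjustment, with the library as a block wherever 2 classes of the same libraries were compared. DESeq2 1.42.0 was an alternative. An SE is the fold change divided by the root of the F statistic. Shares were tested by exact permutation over libraries (scipy 1.17.1), with 95% Clopper-Pearson intervals for counting error. The self-test on simulated counts with 200 genes changed by a fold of 2 recovered 69.5% of them against other cells (9776 genes), 87.5% against Tnfrsf4 single-positive cells (8289 genes), 83% against Tcf7+ Pdcd1+ cells (8311 genes) and 28% between the sorts (8031 genes). In the same order it made 4, 10, 9 and 1 false calls. Every gene was given the same fixed dispersion, not estimated from these data, and only genes above a count limit were changed. These shares are therefore a check of the fits and not the power of the real comparisons.

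Each round is 1 pool of mice, so rounds pair the libraries, and the deviations of gated cells from the mean of their sort correlated between the sorts within rounds (Pearson r = 0.423 across 8026 genes). Genes were named by rule: adjusted p under 0.05, the same direction in every library (for the dependence on the sort, no overlap of the sorts), 50 CPM or more on average in whichever class was higher, no gate, receptor or unnamed gene, and the 12 (against other cells) or 4 (other comparisons) largest changes in each direction, together with fixed gene lists. A few genes that the rule or the lists name are not reported here, and counts over a list include them. The gated cells and the lists were chosen with earlier results of these data known. Positions are from GENCODE M21 on GRCm38.

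The alternatives were DESeq2, its size factors, no filter on low counts, stricter gates, cells of 3000 to 6000 UMIs, no upper gene limit, cells with Cd4 or Foxp3 UMIs or more than 1 β chain left out, cells with exocrine, myeloid or B cell UMIs left out, other clone definitions, the block added or removed, and each library left out. Comparison cells without Havcr2 and Mki67, and the cells of 3000 to 6000 UMIs and left-out libraries for the dependence on the sort, were chosen after seeing the data.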

Additional observations from a re-analysis of the deposited data

Results flagged for a closer look

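The difference between gated and other cells differed between the tetramer sorts, by an interaction test in edgeR, for 90 genes that were more positive and 78 that were more negative in the tetramer-positive sort. The genes named for it had interactions of 2.38 (Il7r), 2.32 (Ccr7), 2.28 (Plaur) and 2.02 (Lef1) on the log2 scale, and of -3.30 (Gzmb), -1.27 (Cxcl10), -1.16 (Ctla4) and -1.16 (Ptger2). Those for Il7r and Lef1 were not called without the tetramer-positive library of Round 2, with cells of 3000 to 6000 UMIs or by DESeq2. DESeq2 did not call that for Gzmb either. With cells of 3000 to 6000 UMIs the counts of more positive and more negative genes were 14 and 94.

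The share of cells in clones of at least 2 cells also moved in opposite directions. Gated cells exceeded other cells by a mean of 24.0 percentage points in the tetramer-negative libraries and differed by -7.14 points in the tetramer-positive libraries. Both libraries of each sort moved the same way, and the difference between the sorts was not tested.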

How the results depend on the processing

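Counts of higher and lower genes by setting were as follows. Against other cells DESeq2 called 362 and 340, cells of 3000 to 6000 UMIs gave 441 and 360, no replicate block gave 50 and 28, and leaving out each library gave 273 to 761 and 296 to 750. Against Tnfrsf4 single-positive cells these were 36 and 39 (DESeq2), 58 and 55 (3000 to 6000 UMIs), 0 and 0 without the replicate block (210 genes at an unadjusted p under 0.05 in edgeR), and 36 to 153 and 30 to 157 with a library left out. Against Tcf7+ Pdcd1+ cells they were 108 and 130, 225 and 220, 9 and 4, and 107 to 423 and 127 to 470.

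Between the sorts, DESeq2 called 5 and 5, no filter on low counts gave 17 and 42, the replicate block 98 and 124, and leaving out a library 12 to 29 and 12 to 43. At least 2 Izumo1r UMIs gave 0 and 0 (402 at an unadjusted p under 0.05), no upper gene limit 0 and 0 (520), cells with more than 1 β chain left out 0 and 0 (499), and cells of 3000 to 6000 UMIs 1 and 0 (287). For the dependence on the sort, DESeq2 called 59 and 23, its size factors in edgeR 136 and 87, cells of 3000 to 6000 UMIs 14 and 94, comparison cells without Havcr2 and Mki67 127 and 160, and leaving out a library 22 to 189 and 8 to 174. The cause of these shifts was not tested.

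Against other cells, directions turned for Pclaf (0.17, comparison cells without Havcr2 and Mki67), Pdcd1 (-0.32, at least 2 Izumo1r UMIs), Cd74 (0.17, 3000 to 6000 UMIs) and, with exocrine cells left out by construction, Prss2 (1.27), Ctrb1 (1.61), Cpa1 (1.60), Cela3b (1.41), Pnlip (1.47) and Clps (1.26). Elsewhere they turned for Gzma against Tcf7+ Pdcd1+ cells (0.29, DESeq2), Cxcr4 between the sorts (0.09 over all libraries, -4.13 to 0.93 with a library left out, lowest without the tetramer-positive one of Round 2), and Ccl4 (-0.45) and Prss2 (-10.34) in the dependence on the sort (3000 to 6000 UMIs).

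The difference in the share of gated cells was -1.67 to -0.358 points with a round left out, and -1.01 with the replicate block (exact p = 0.5). The difference in expanded clones was 1.60 to 13.8 points with a library left out and 8.42 without the replicate block (exact p = 0.6). Every comparison of gated cells between the sorts rests on only 43 and 73 tetramer-positive gated cells. The part of their low summed depth in these results was not tested.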
